A study of Mus musculus with 12 samples.

Results

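The genes followed here are 10 markers of macrophages and monocytes, Cd163, Ms4a7, Csf1r, Adgre1, Cd68, Mrc1, Cd14, Aif1, C1qa and C1qb, in the uterus of ovariectomized mice. A probe was taken as a member where its gene name in the files, or the current symbol of its accession, was one of these 10 names, and Adgre1 stood in the files under its older name Emr1. All 10 genes were found, on 15 of the 41174 probes of the array. All 15 probes passed the filter on dim probes, among 29008 probes of 19297 genes that were tested. Adgre1, Aif1 and Ms4a7 had 2 probes each, Csf1r had 3 and the other 6 genes had 1, and the brightest probe stood for its gene. The 4 groups, with 3 mice each and 1 array per mouse, were EAAE mice given estradiol (E2), EAAE mice given saline, wild-type (WT) mice given E2 and WT mice given saline. Per the series title, EAAE stands for an estrogen receptor alpha, the product of Esr1, that is deficient in DNA binding. The labels do not give the zygosity of the EAAE allele or the dose of E2. Every mouse was an adult of at least 10 weeks on a C57bl6/Jx129 background, had been ovariectomized and rested for 10 to 14 days, and gave its uterus 2 h after an injection of 100 ul. RNA came from 1 whole uterus per array, so the values mix all uterine cell types, and fewer cells of a type and less RNA per cell cannot be told apart.

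Macrophages are phagocytes that live in most tissues, where they are seeded before birth or replaced from blood monocytes, and their survival depends on signals through the receptor encoded by Csf1r. In the uterus they lie among stromal and muscle cells, clear dying cells and debris, and vary in number and state with ovarian hormones. No member is a complete marker by itself. Csf1r (receptor for the growth factors CSF1 and IL-34), Adgre1 (a surface antigen in standard use for mouse macrophages), Cd68 (a lysosomal glycoprotein) and Aif1 (the actin-binding protein Iba1) mark most tissue macrophages. Ms4a7 encodes a membrane protein with several membrane-spanning segments, and C1qa and C1qb encode chains of C1q, the complement component that starts the classical pathway and that macrophages produce. Mrc1 (the mannose receptor, CD206) and Cd163 (the scavenger receptor for complexes of haptoglobin and haemoglobin) are receptors of resident macrophages. Cd14 is the coreceptor that hands bacterial lipopolysaccharide to Toll-like receptor 4 and is made by monocytes, macrophages and some other cells.

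The sequences that follow belong to members that differed between genotypes under saline: the Ms4a7 and C1q transcripts, which were lower in EAAE than in WT uteri, and Cd163, which was higher. Ms4a7 was read by 2 probes on the minus strand of chromosome 19 in the files' build, mm7. The brighter, placed by the files at chr19:11001661-11002436, covers a span longer than the probe itself, and the other lies at chr19:11001639-11001698. They share a run of 35 bases, shown in capitals, so they are not independent readings of the gene.
Ms4a7 brighter probe: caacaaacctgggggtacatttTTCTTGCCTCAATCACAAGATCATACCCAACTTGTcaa
Ms4a7 second probe: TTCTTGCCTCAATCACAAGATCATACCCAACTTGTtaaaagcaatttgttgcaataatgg
C1qa and C1qb are both on the minus strand of chromosome 4, and their probes lie at chr4:136274931-136274990 and chr4:136259100-136259159 in mm7.
C1qa probe: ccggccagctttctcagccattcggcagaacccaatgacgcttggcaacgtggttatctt
C1qb probe: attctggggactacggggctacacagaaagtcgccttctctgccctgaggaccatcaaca

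Promoter sequences of 300 bases around the gene start, from RefSeq (GRCm38.p6), were found for 6 of the 10 members: Mrc1, C1qb, Cd163, Cd68, Aif1 and Ms4a7, the last with 2 starts, which gives 7 promoters. They were searched on both strands for GAGGAA, the core bound by PU.1, the transcription factor that specifies myeloid cells. The core was found in 5 of the 7 promoters, against 28.3% of the 32851 promoters in the table. The full estrogen response element, GGTCANNNTGACC, was in none of the 7 and in 0.070% of all promoters. Its single arm, AGGTCA, was in 1 of the 7, that of Aif1, and in 16.3% of all promoters. These letter matches overlap where a full element holds a single arm, and they describe the sequence only. The promoters of 2 members that were lower in EAAE uteri under saline, and that of Cd163, are printed with the PU.1 core in capitals. Cd163 had no match, and neither did the other Ms4a7 start, chr19:11334646-11334945, which is not printed.
Ms4a7 promoter, chr19:11336097-11336396, minus strand: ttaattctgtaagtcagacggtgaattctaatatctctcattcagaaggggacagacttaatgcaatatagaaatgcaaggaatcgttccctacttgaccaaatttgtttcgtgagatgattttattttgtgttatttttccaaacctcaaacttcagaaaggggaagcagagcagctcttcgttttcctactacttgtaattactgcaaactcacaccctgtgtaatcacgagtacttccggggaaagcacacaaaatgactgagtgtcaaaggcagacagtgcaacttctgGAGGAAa
C1qb promoter, chr4:136886151-136886450, minus strand: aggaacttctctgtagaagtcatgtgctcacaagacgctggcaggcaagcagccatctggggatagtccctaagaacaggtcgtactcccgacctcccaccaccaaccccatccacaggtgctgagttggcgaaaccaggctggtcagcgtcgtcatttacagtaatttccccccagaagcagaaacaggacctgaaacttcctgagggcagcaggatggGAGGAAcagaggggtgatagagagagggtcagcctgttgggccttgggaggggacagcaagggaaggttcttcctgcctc
Cd163 promoter, chr6:124304401-124304700, plus strand: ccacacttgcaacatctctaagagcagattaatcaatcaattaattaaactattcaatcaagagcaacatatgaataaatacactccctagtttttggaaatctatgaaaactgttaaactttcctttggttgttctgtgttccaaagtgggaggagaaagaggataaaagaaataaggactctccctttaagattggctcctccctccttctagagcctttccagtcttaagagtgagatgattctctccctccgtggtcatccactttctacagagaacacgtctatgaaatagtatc

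The arrays had 75th percentiles of 1398 to 1942 intensity units and 64.0 to 74.0% of probes well above background. Each level given here is the log2 of the processed intensity minus that of the array's 75th percentile, so a level of 0 equals that percentile, and levels of different probes are not comparable. Some arrays stood apart for the members and are named beside the results they touch. WT saline mouse 1 was the highest of its group for all 10 members. EAAE E2 mouse 1 was the highest of its group for 9 members, and EAAE E2 mouse 2 was the lowest for 9. All EAAE E2 samples lay at position 4 of their slides, so that group and that position cannot be told apart. Esr1 averaged 3.05 ± 0.12 in EAAE E2, 3.28 ± 0.12 in EAAE saline, 2.63 ± 0.06 in WT E2 and 2.87 ± 0.11 in WT saline uteri (SD, n = 3), which does not check a genotype that changes the protein, and its second probe had the opposite sign between genotypes (-0.28 under saline and -0.48 after E2, EAAE minus WT). The uterine genes of a list of 6 (Esr1, Pgr, Hoxa10, Hoxa11, Msx1 and Wnt4) were well above background on all arrays, and Wnt4 rose by 3.29 and Pgr by 1.94 in WT after E2 (adjusted p = 1.08e-07 and 9.81e-05).

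The general macrophage markers were mostly highest in WT saline uteri. Csf1r had levels of 1.24, 0.0335 and 0.62 in EAAE E2 uteri, 0.39, 0.079 and -0.12 in EAAE saline uteri, 0.37, 0.22 and 0.026 in WT E2 uteri and 1.12, 0.48 and 0.71 in WT saline uteri (mice 1 to 3 in each group). In order of their means the 4 groups ran WT saline, EAAE E2, WT E2 and EAAE saline, and each overlapped its neighbour in that order. Adgre1 was 2.37, 0.19 and 1.07 in EAAE E2, 0.80, 0.41 and 0.53 in EAAE saline, 1.53, 1.49 and 1.28 in WT E2 and 2.34, 1.94 and 1.71 in WT saline. The 3 EAAE saline uteri lay below all 6 WT uteri, while the EAAE E2 uteri spanned the whole range of the other groups. Aif1 was 1.57, 0.53 and 1.06 in EAAE E2, 0.88, 0.53 and 0.65 in EAAE saline, 1.60, 1.26 and 1.45 in WT E2 and 2.18, 1.93 and 1.83 in WT saline, with WT saline apart at the top and the 2 EAAE groups overlapping at the bottom. Cd68 was 0.81, -1.01 and -0.49 in EAAE E2, -1.15, -0.85 and -1.21 in EAAE saline, -0.49, -0.49 and -0.89 in WT E2 and 0.63, -0.26 and -0.40 in WT saline. For Cd68 each group overlapped its neighbour in the order of means, and EAAE E2 mouse 1 was the highest of the 12.

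Ms4a7 and the C1q chains shared 1 order of groups, WT saline, WT E2, EAAE E2 and EAAE saline, which Adgre1 and Aif1 also had. Ms4a7 was 1.18, -1.21 and -0.28 in EAAE E2, -0.77, -1.03 and -0.88 in EAAE saline, 0.91, 0.82 and 0.67 in WT E2 and 1.72, 1.39 and 1.21 in WT saline. The EAAE saline mice were tightly grouped and far below both WT groups, and EAAE E2 mouse 1 alone of the EAAE mice reached WT levels. C1qa was 1.86, 0.23 and 0.87 in EAAE E2, 0.75, 0.44 and 0.22 in EAAE saline, 1.55, 1.30 and 1.13 in WT E2 and 2.21, 1.63 and 1.78 in WT saline. C1qb was 1.38, -0.59 and 0.28 in EAAE E2, -0.0031, -0.11 and -0.66 in EAAE saline, 0.91, 0.75 and 0.51 in WT E2 and 1.81, 1.04 and 1.19 in WT saline. The WT saline uteri stood above the WT E2 uteri for all 3 genes, and the 2 EAAE groups overlapped.

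The receptors Mrc1, Cd163 and Cd14 had other orders. Mrc1 was -0.0084, -1.25 and -0.33 in EAAE E2, -0.71, -1.03 and -0.69 in EAAE saline, -1.28, -1.23 and -1.24 in WT E2 and -0.043, -0.56 and -0.79 in WT saline. WT E2 was the lowest group for Mrc1, and EAAE E2 mouse 2 lay within its range. Cd163, read by a probe at chr6:124312766-124312825, was -0.41, -1.17 and -0.87 in EAAE E2, -0.555, -1.29 and -0.44 in EAAE saline, -4.49, -4.20 and -4.63 in WT E2 and -2.03, -3.32 and -3.18 in WT saline. All 6 EAAE uteri were higher than all 6 WT uteri, and within WT the E2 group lay wholly below the saline group. Cd14 was 2.10, 2.35 and 2.48 in EAAE E2, 2.23, 2.21 and 1.74 in EAAE saline, 0.34, 0.072 and 0.26 in WT E2 and 1.75, 1.38 and 1.65 in WT saline. The WT E2 uteri were apart at the bottom for Cd14, and the lowest EAAE saline mouse fell just below the highest WT saline mouse.

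**Figure D1:**
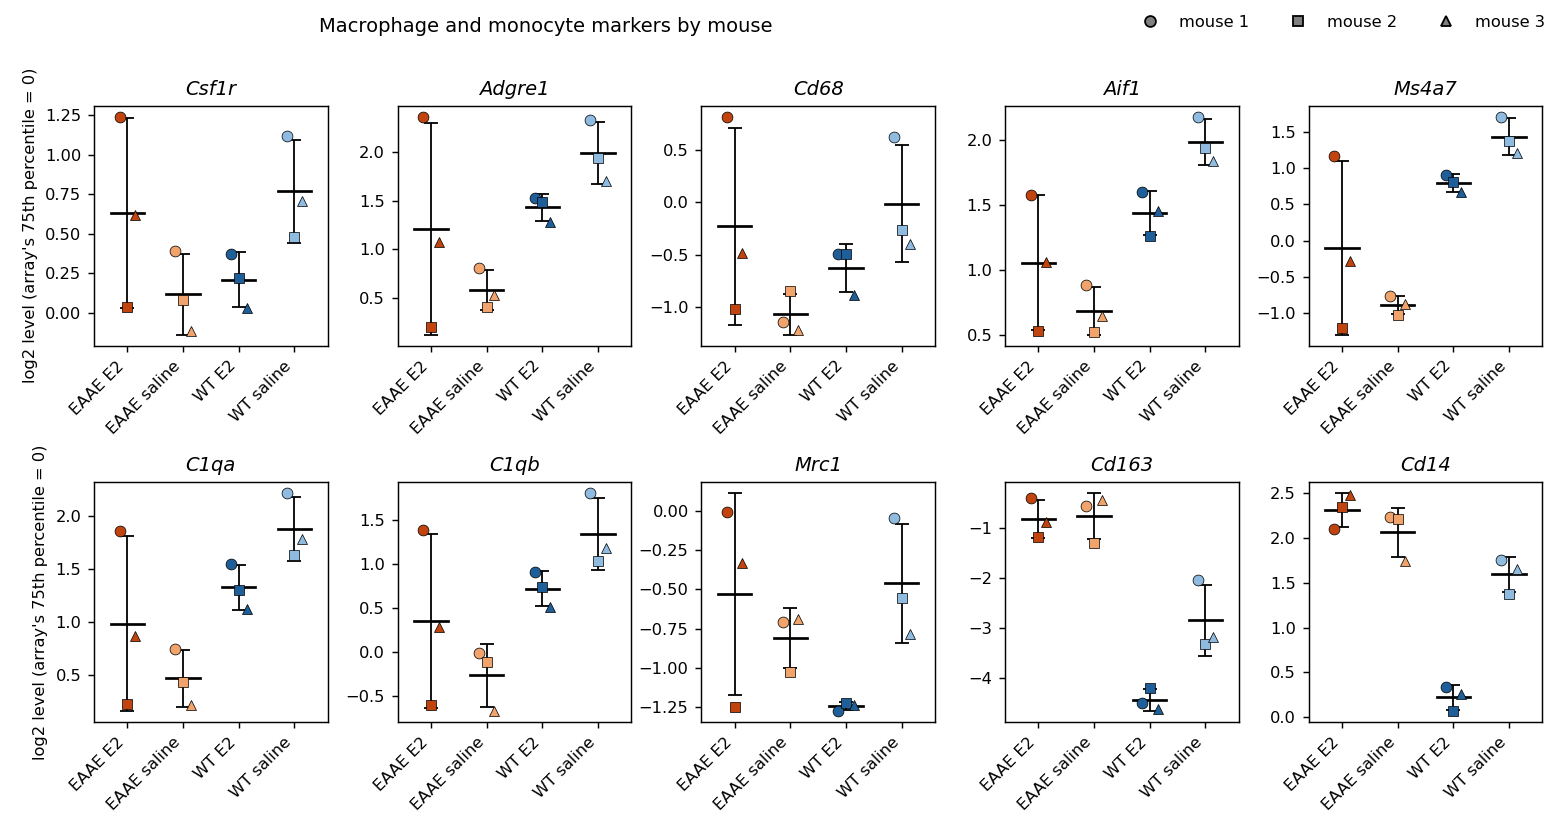
Level of each of the 10 markers (log2 intensity relative to the array's 75th percentile) by group, with points for mice and bars for the mean ± SD (n = 3). Cd163 lies at -4.63 to -2.03 in the 6 WT mice and at -1.29 to -0.41 in the 6 EAAE mice, and Cd14 is at 0.072 to 0.34 in WT E2 uteri.

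The first comparison asked how the WT uterus answered 2 h of E2. Cd163, Cd14 and Mrc1 were lower after E2 than after saline, and the other 7 markers were lower in every E2 mouse without passing the test. Cd163 fell by 1.59 on the log2 scale (SE 0.35, 3.02-fold lower, adjusted p = 0.00356), and Cd14 fell by 1.37 (SE 0.16, 2.59-fold lower, adjusted p = 5.88e-05), by limma with Benjamini-Hochberg adjustment over all genes. Mrc1 fell by 0.79 (SE 0.29, adjusted p = 0.0419). Called lower were thus 3 of 10 members and called higher 0, against 29.7% of all genes called lower and 19.6% called higher, so the share of members called lower was close to the background. The groups did not overlap for any of the 10 members, all lower, against 39.6% of all genes lower and 24.9% higher without overlap. The median difference of the members was -0.62 and that of all genes -0.15. Among the 7 that missed the threshold, differences ran from -0.64 for Ms4a7 (adjusted p = 0.268) to -0.55 for Aif1 (adjusted p = 0.0679).

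Scaling mattered to the background here. With the array median in place of the 75th percentile, the median of all genes in WT after E2 was -0.01 and 53.4% of called genes were higher, against 39.7% with the 75th percentile. All 10 members were still lower with that scaling, with a median of -0.48. The Mrc1 call was lost with the array median (adjusted p = 0.0844), with slide as a block (0.0719), and on leaving out WT saline mouse 1 (0.150) or any 1 of 6 other arrays. It was also lost with quantile normalization (0.0536), with no filter on dim probes (0.0673) and with slide and position (-0.47, 0.379). The calls of Cd163 and Cd14 held in all 24 alternatives, with differences of -1.83 to -1.03 for Cd163 and -1.48 to -1.24 for Cd14. The 24 are not independent checks. The series table repeats the same intensities, and averaging probes cannot move a gene with 1 probe, as both are. Leaving out an EAAE array also keeps these differences and alters only their p. Within slide 1, with 1 mouse per group, the median of the members was -1.14, and within slide 3, with 1 E2 and 2 saline mice, it was -0.44, and all 10 were lower on both. WT saline mouse 1 was the saline mouse of slide 1.

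In EAAE uteri no marker passed the test after E2. Differences between EAAE E2 and EAAE saline uteri ran from -0.06 for Cd163 (SE 0.35, adjusted p = 0.955) to 0.84 for Cd68 (SE 0.41, adjusted p = 0.355), and 9 of 10 had a positive sign. Called were 0 of 10 members, and 0 had an unadjusted p under 0.05, against 0.689% of all genes called higher and 0.767% called lower. All 10 overlapped between the groups, where 9.59% of all genes were higher and 8.87% lower without overlap. The members' median was 0.51, and that of all genes was 0.02. For all members but Cd14 and Cd163 the EAAE E2 mice were more spread than the EAAE saline mice. The SD was 1.20 for Ms4a7, 1.09 for Adgre1 and 0.94 for Cd68, against 0.13, 0.20 and 0.19 in EAAE saline mice. It was 0.19 against 0.27 for Cd14 and 0.39 against 0.46 for Cd163. The summed level of 31 other macrophage genes, in multiples of the array's 75th percentile, was 50.9 to 188 in EAAE E2 and 52.0 to 70.2 in EAAE saline uteri. That of 3 erythroid markers was 8.48 to 32.0 in EAAE E2 and 5.27 to 13.8 in EAAE saline uteri, and the part of blood or macrophage content in this spread was not tested. Summed levels, here and below, are weighted toward the brightest probes of a list. Without EAAE E2 mouse 1 the median was 0.11. By slide, the median was 1.29 on slide 1, which held that mouse, with 9 members higher, and -0.26 on slide 2, which held EAAE E2 mouse 2, with 8 lower. With the array median as the scale, 62.7% of all genes called were higher, against 47.3% with the 75th percentile.

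**Figure D2:**
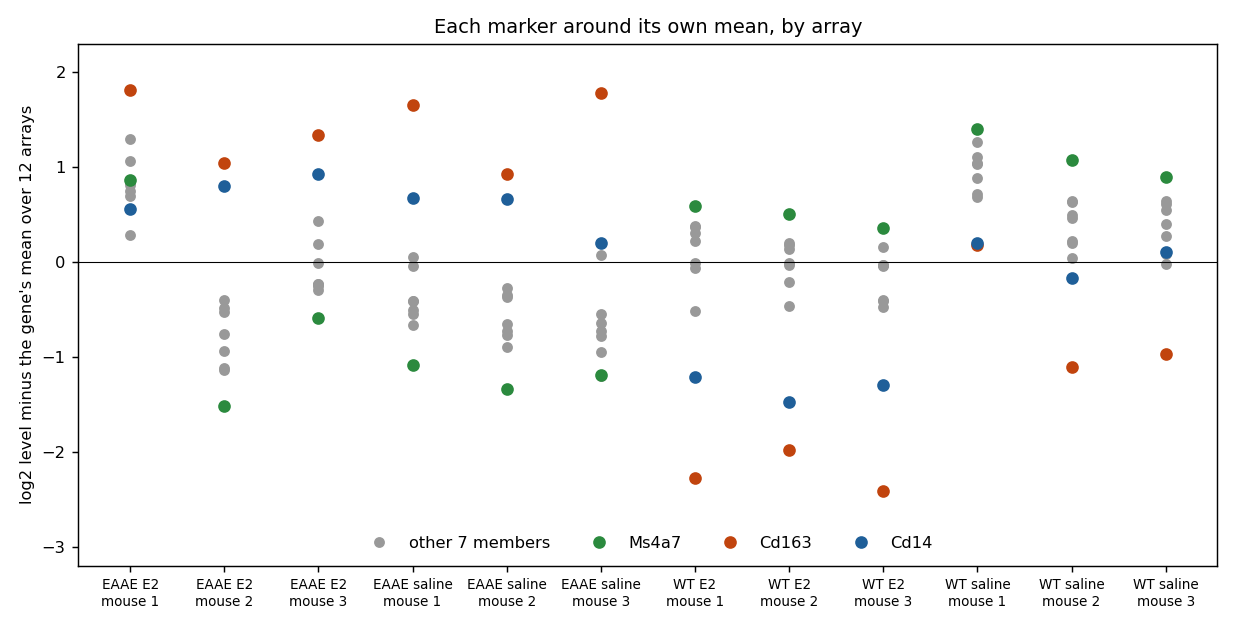
Level of each marker on each array minus that marker's mean over the 12 arrays (log2), with Ms4a7, Cd163 and Cd14 coloured and the other 7 members in grey. EAAE E2 mouse 1 and WT saline mouse 1 lie high for all the grey genes, and Cd163 and Cd14 take their lowest points in the 3 WT E2 mice.

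Under saline, in mice given no E2, the markers of EAAE and WT uteri differed in both directions. Ms4a7, C1qb, Adgre1, C1qa and Aif1 were lower in EAAE uteri, and Cd163 was higher. Ms4a7 fell by 2.33 (SE 0.45, 5.03-fold lower, adjusted p = 0.00372), and its second probe differed by -2.25 (SE 0.45, adjusted p over probes 0.00461). C1qb fell by 1.60 (SE 0.42, 3.04-fold, adjusted p = 0.0161) and C1qa by 1.40 (SE 0.34, 2.65-fold, adjusted p = 0.0120). Of the general markers, Adgre1 fell by 1.42 (SE 0.43, adjusted p = 0.0298) and Aif1 by 1.30 (SE 0.23, adjusted p = 0.00198), with the same -1.30 on the second Aif1 probe. The second, dim Adgre1 probe was well above background in all 3 WT saline uteri and in none of the EAAE saline uteri. It read at least 2.37-fold lower in EAAE (adjusted p over probes 0.0298), a bound taken against the lowest signal well above background on each array. Cd163 rose by 2.08 (SE 0.35, 4.24-fold higher, adjusted p = 0.00163). Not called were Cd68 (-1.06, adjusted p = 0.0797), Csf1r (-0.65, 0.105), Mrc1 (-0.35, 0.387) and Cd14 (0.47, 0.0501).

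Called lower were 5 of 10 members and called higher 1, against 15.0% and 14.6% of all genes. Without overlap between groups 7 were lower and 1 was higher, against 23.5% of all genes in each direction. The members' median was -1.18, beside 0.0012 for all genes. Slides and groups were poorly crossed under saline, since slide 1 alone held both genotypes, with 1 mouse each. On that slide 8 members were lower and 2 higher in the EAAE mouse, with a median of -1.56, a Ms4a7 difference of -2.74 and a Cd163 difference of 0.74. With slide as a block Cd163 (1.90, adjusted p = 0.0206), Ms4a7 (-2.22, 0.0236), Aif1 (-1.34, 0.0128) and C1qa (-1.40, 0.0482) were called, and Adgre1 (0.106) and C1qb (0.0579) were not. The WT saline arrays lay at positions 1, 1 and 2 of their slides and the EAAE saline arrays at 2, 3 and 3. Position and genotype were thus poorly separated under saline. With position on the slide added, 0 of 10 were called, Cd163 was 1.77 (adjusted p = 0.323) and Ms4a7 -1.57 (0.451), while 419 of the 19297 genes were called in all. Leaving out WT saline mouse 1 also ended the calls of Adgre1 (adjusted p = 0.102) and C1qb (0.0633). Adgre1 was lost without WT saline mouse 2 (0.0638), EAAE saline mouse 2 (0.0784) or EAAE saline mouse 3 (0.0794) and with no filter on dim probes (0.0505), and C1qb without EAAE saline mouse 3 (0.0629). Cd14 was called without EAAE saline mouse 3 (0.62, adjusted p = 0.0154).

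After E2, Cd163 and Cd14 set EAAE uteri apart from WT uteri. Cd163 rose by 3.62 (SE 0.35, 12.3-fold higher, adjusted p = 9.96e-06) and Cd14 by 2.09 (SE 0.16, 4.25-fold higher, adjusted p = 1.96e-06) in EAAE relative to WT. Both held in every alternative, at 2.75 to 3.80 for Cd163 and 2.00 to 2.39 for Cd14. On slides 1, 2 and 3, each with 1 mouse per group, Cd163 differed by 4.22, 3.32 and 3.32 and Cd14 by 1.85, 2.01 and 2.40. The other 8 members overlapped between genotypes and were not called, from -0.90 for Ms4a7 (adjusted p = 0.114) to 0.72 for Mrc1 (adjusted p = 0.0517). Called higher were thus 2 of 10 members and called lower 0, against 33.5% and 24.5% of all genes, and 2 were higher without overlap, where 37.1% of all genes were higher and 27.3% lower. The members' median was 0.09, and that of all genes was 0.11. The count rested on single EAAE E2 mice. Without EAAE E2 mouse 1, 7 members were called, where 10820 of the 19297 genes were called in all. Among the 7, Ms4a7 (-1.54), C1qb (-0.88), Adgre1 (-0.80), C1qa (-0.78) and Aif1 (-0.64) were lower in EAAE. Without EAAE E2 mouse 2, 4 were called, with 10368 genes in all. Among the 4, Mrc1 (1.08, adjusted p = 0.00172) and Csf1r (0.72, adjusted p = 0.0303) were higher. On slide 1, with EAAE E2 mouse 1, all 10 members were higher in EAAE, and on slide 2, with EAAE E2 mouse 2, 7 were lower.

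The last comparison set the response to E2 in EAAE against that in WT, as an interaction term. All 10 differences were positive, and Cd14, Cd163 and Aif1 passed the test. The Cd14 response differed by 1.62 (SE 0.23, adjusted p = 0.000393), with 0.25 in EAAE and -1.37 in WT. The Cd163 response differed by 1.54 (SE 0.50, adjusted p = 0.0333), with -0.06 in EAAE and -1.59 in WT. The Aif1 response differed by 0.92 (SE 0.32, adjusted p = 0.0447), with 0.37 in EAAE and -0.55 in WT. Called were 3 of 10 members, all more positive in EAAE, against 22.2% of all genes more positive and 15.1% more negative. The members' median was 1.22, beside 0.15 for all genes, and it was 0.78 without EAAE E2 mouse 1 and 0.59 without both that mouse and WT saline mouse 1. The remaining 7 ran from 1.06 for C1qa (adjusted p = 0.111) to 1.45 for Cd68 (adjusted p = 0.0751). The Cd14 call held in all alternatives, at 1.46 to 1.73. Cd163 lost its call on leaving out WT E2 mouse 1 (adjusted p = 0.0605) or 3 (0.0699), EAAE saline mouse 2 (0.0704), or EAAE E2 mouse 1 (0.0708) or 3 (0.0520). It was also lost with quantile normalization (0.0521), normexp (0.95, 0.0679), no filter (0.0562) and slide and position (0.0680). Aif1 kept its call only without EAAE saline mouse 1 or without EAAE E2 mouse 2, among the 12 arrays left out in turn, and its second probe differed by 0.96 (adjusted p over probes 0.0821). Its call was also lost with the array median (0.0550), slide as a block (0.0732), slide and position (0.0614), no filter (0.0745) and the mean of its probes (0.0603). Without EAAE E2 mouse 2 all 10 members were called, where 6845 of the 19297 genes were called in all. The comparisons share arrays, so their values are not independent of each other.

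**Figure D3:**
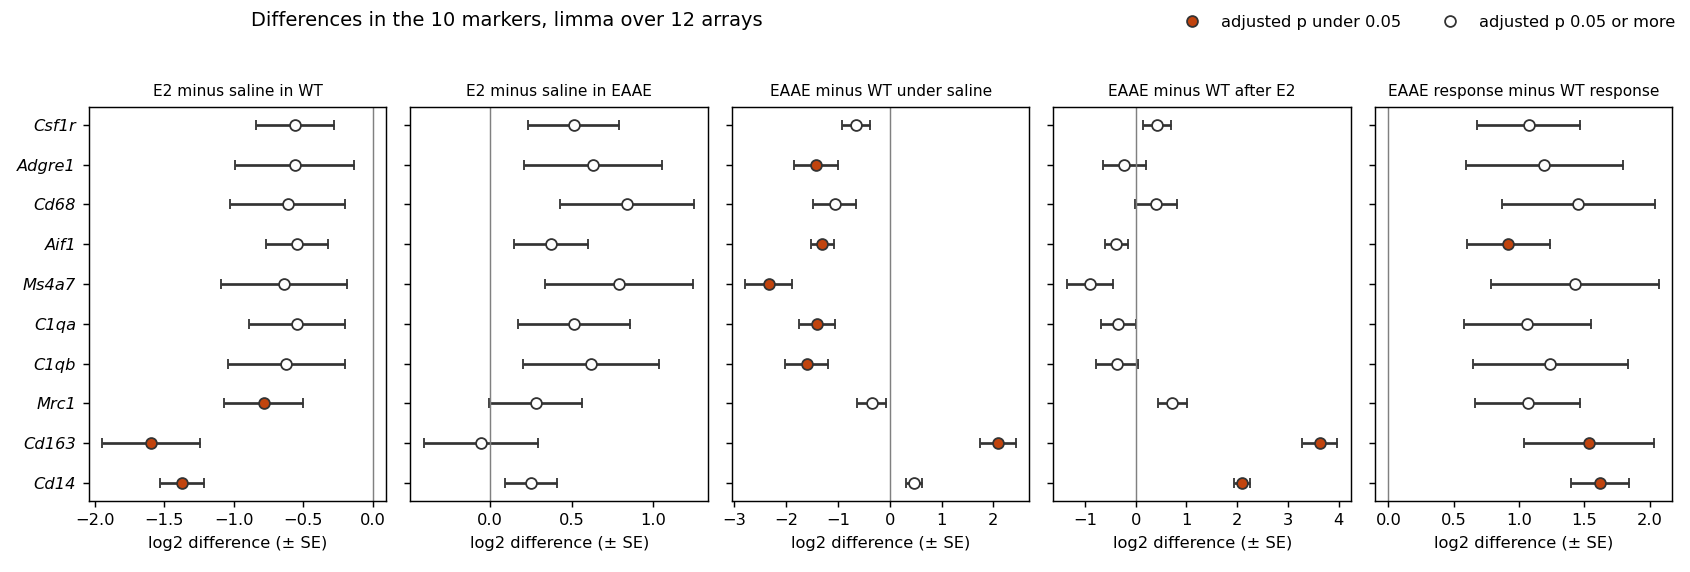
Log2 difference ± SE of each marker in the 5 comparisons, with filled points where the adjusted p was under 0.05. Filled points number 3 for E2 in WT, 0 for E2 in EAAE, 6 for genotype under saline, 2 for genotype after E2 and 3 for the difference in response.

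The other macrophage and monocyte genes formed a list of 35, of which 31 were tested. Spi1, Timd4 and Vsig4 were too dim, and Ly6c2 was not matched to a probe. Under saline 21 of the 31 were lower in EAAE uteri and none was higher, and 30 had a negative sign, with a median of -1.001, against 15.0% of all genes called lower, 14.6% called higher and a median of 0.0012. Among those with the smallest p, Clec7a, a receptor for fungal beta-glucan, fell by 2.14 (adjusted p = 0.00909), Lyz2, a lysozyme, by 1.85 (0.00773), Cx3cr1, the fractalkine receptor, by 0.97 (0.00450) and Stab1, a scavenger receptor, by 0.67 (0.00693). The summed level of the 31, in multiples of the array's 75th percentile, was 52.0 to 70.2 in EAAE saline uteri and 150 to 228 in WT saline uteri. The count was 5 with slide as a block, 0 with position added, 6 without WT saline mouse 1 and 25 without EAAE E2 mouse 2. Genes called in all were 3629, 419, 4169 and 5693 of 19297 in these fits, in that order. After E2, 4 of the 31 were lower in EAAE and none was higher, with a median of -0.15: Irf8 (-0.85), Lyve1 (-0.73), Cx3cr1 (-0.53) and Mertk (-0.49). These counts lay below the 24.5% of all genes called lower and 33.5% called higher. They also rested on single mice, with 12 lower and 0 higher without EAAE E2 mouse 1, where 10820 genes were called in all. Without EAAE E2 mouse 2, 3 were lower and 4 higher (median 0.24), with 10368 genes in all. With slide and position 0 were called and 24 of the 31 were positive, with a median of 0.49.

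No gene of this list was called for E2 in either genotype, with 0 of 31 in EAAE (median 0.47, 1 gene with an unadjusted p under 0.05) and 0 of 31 in WT (median -0.55, 2 genes with an unadjusted p under 0.05), by limma. Without EAAE E2 mouse 1 the median in EAAE was 0.082, with 18 genes positive and 13 negative, against 29 and 2 with all mice. A fit over the 2 WT groups alone called 14 lower and 2 higher in WT, where 10303 of the 19297 genes were called in all. The response difference called Siglec1, a sialic acid-binding receptor, at 1.55 (adjusted p = 0.0262), 1 gene of 31 against 22.2% of all genes, and the median of the list was 1.06. Called more positive were 0 without WT saline mouse 1, WT E2 mouse 2, WT E2 mouse 3 or EAAE saline mouse 3. The count was 21 without EAAE E2 mouse 2 and 12 with the replicate block, with 6845 and 7055 of the 19297 genes called in all. The median was 0.61 without EAAE E2 mouse 1. Siglec1 was well above background on 1 of 3 EAAE saline and 2 of 3 WT E2 arrays.

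**Figure D4:**
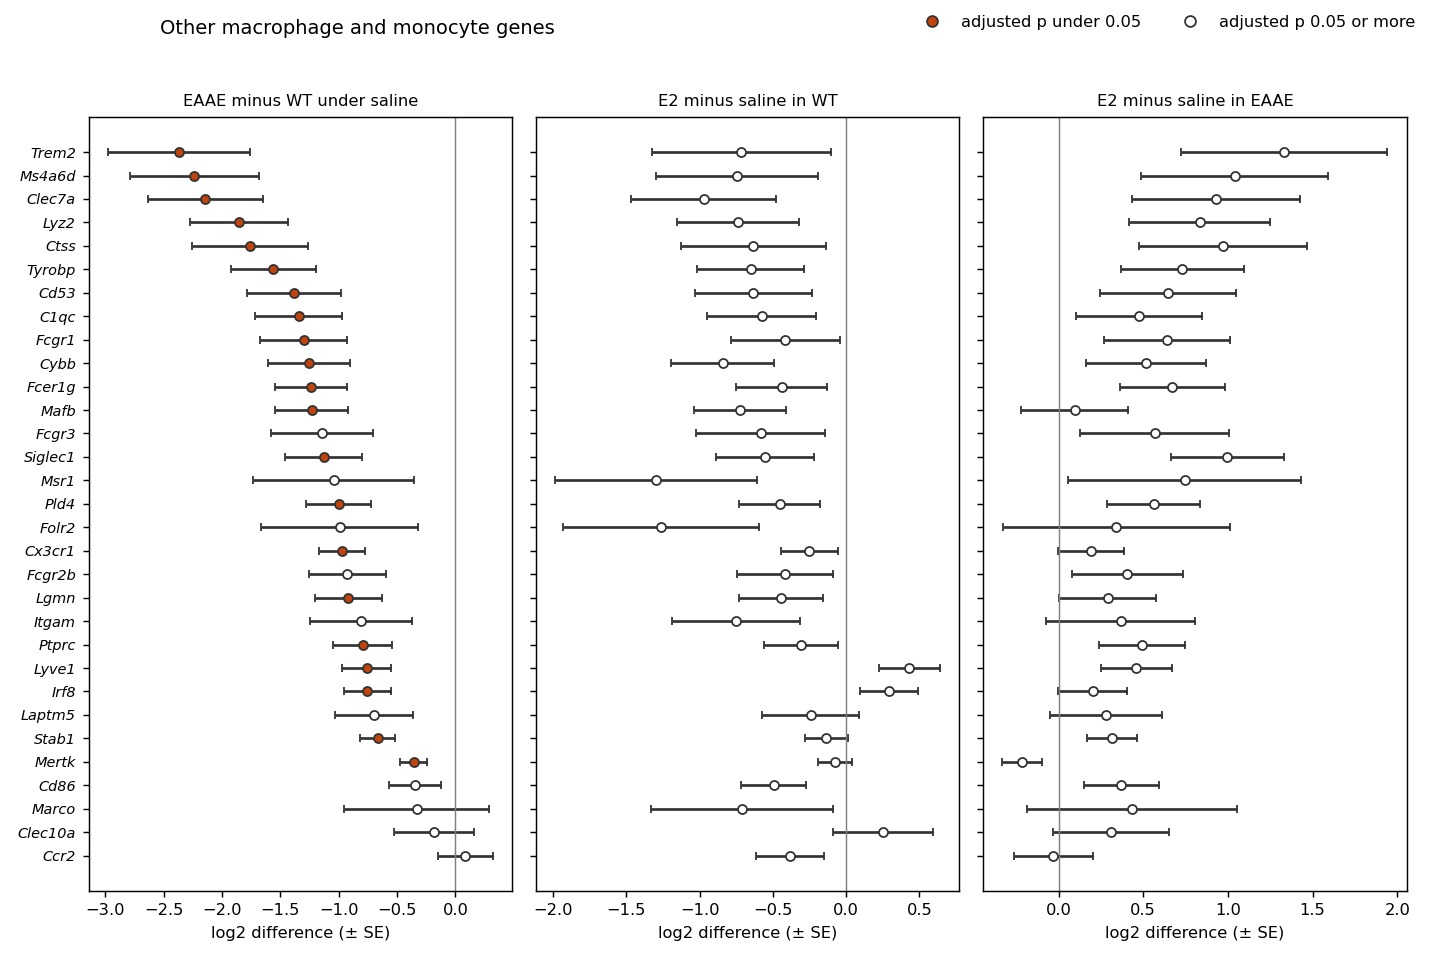
Log2 differences of the 31 other macrophage and monocyte genes for genotype under saline and for E2 in WT and in EAAE. Under saline 30 of the 31 lie below 0, with a median of -1.001, and after E2 the medians are -0.55 in WT and 0.47 in EAAE.

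The ligands of Csf1r differed between genotypes after E2, and one of them, Il34, was lower in WT after E2. For the lists that follow, the shares of all genes called higher and lower were 19.6% and 29.7% in WT after E2. They were 14.6% and 15.0% between genotypes under saline, and 33.5% and 24.5% between genotypes after E2. A list count near these shares is no result about the list. The list counts come from the fit without slide or position. With both added, 419 of the 19297 genes were called between genotypes under saline. Il34 fell by 1.24 in WT after E2 (adjusted p = 9.61e-05, the p in parentheses from here on being adjusted), and it was higher in EAAE than in WT by 0.53 under saline (0.0274) and by 1.88 after E2 (3.33e-06). Csf1, the other ligand, was lower in EAAE by 1.29 after E2 (6.19e-05), and its response differed by -0.94 (0.00898), but its difference of 0.37 in WT after E2 was not called (0.0835). Of the 6 tested genes of colony-stimulating ligands and receptors, 1 was called higher and 2 lower for E2 in WT, 2 higher and 1 lower for genotype under saline, and 3 higher and 2 lower for genotype after E2, and the counts for E2 in WT were close to those of all genes. Csf2rb was called in WT (-0.99), but its other probe had the opposite sign (0.28).

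Among 6 chemokines that attract monocytes, Ccl12 rose by 2.08 (4.58e-05) and Ccl7 by 1.85 (0.00681) in WT after E2, and Ccl5 fell by 0.58 (0.0257). After E2 Ccl7 (log2 difference -2.39, adjusted p 0.00113), Ccl2 (-2.37, 0.00304) and Ccl12 (-0.94, 0.00542) were lower in EAAE than in WT. Under saline Ccl8 (-1.90, 0.0178) and Ccl5 (-0.92, 0.00488) were lower in EAAE, and Cx3cl1, the ligand of Cx3cr1, was higher (0.87, 0.000325). The chemokine list was called 2 higher and 1 lower for E2 in WT, 1 higher and 2 lower for genotype under saline, and 1 higher and 3 lower for genotype after E2, each 1 to 3 genes of 6. In EAAE after E2 neither it nor the colony-stimulating list had a call.

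The partners of Cd14 moved in part with it. Tlr4, the lipopolysaccharide receptor that Cd14 serves, fell by 1.15 in WT after E2 (0.000124), and its cofactor Ly96 fell by 0.74 (0.00130). Tlr6 fell by 0.91 (0.00333) and Tlr2 by 0.59 (0.00293). Tlr4 was higher in EAAE than in WT by 0.53 under saline (0.0233) and by 0.99 after E2 (0.000222). Ly96 was lower in EAAE by 0.74 under saline (0.00276). Of the 10 tested genes of this list, 2 were called higher and 4 lower for E2 in WT, 1 higher and 3 lower for genotype under saline, and 3 had a more positive response in EAAE, against 19.6% higher and 29.7% lower of all genes for E2 in WT, 14.6% and 15.0% under saline, and 22.2% more positive in response.

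Of the complement genes beside C1qa and C1qb, 10 were tested. C1qc, the third C1q chain, was lower in EAAE under saline by 1.34 (0.0212), as was C4b by 1.21 (0.0250), and these were the 2 calls. In WT after E2, Serping1, the C1 inhibitor, fell by 0.53 (0.0107) and C1ra by 0.54 (0.0343), with all 10 negative in sign. For haem and iron handling, the setting of Cd163, 11 genes were tested. Slc40a1, the iron exporter ferroportin, fell by 1.78 in WT after E2 (7.01e-06) and was lower in EAAE under saline by 2.41 (3.22e-06), while Cd163 was higher there. Tfrc, the transferrin receptor, rose by 1.41 (4.76e-05) and Hpx, the haem-binding hemopexin, by 0.99 (0.000760) in WT after E2. Of the 11 iron genes, 2 were called higher and 4 lower for E2 in WT, near the 19.6% and 29.7% of all genes, and 3 lower for genotype under saline, against 15.0%.

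Of 13 genes of macrophage activation states 8 were tested. Il4ra, the interleukin 4 receptor chain, rose by 0.95 in WT after E2 (0.000213) and was lower in EAAE by 0.995 under saline (0.000410) and by 2.15 after E2 (4.87e-07). Chil3, a chitinase-like protein, fell by 1.32 in WT after E2 (0.0456). Ptgs2, the inducible cyclooxygenase, was at least 1.87-fold higher in EAAE under saline (0.00215) and at least 4.19-fold higher after E2 (2.54e-05), being not well above background in either WT group. The list was called 1 higher and 1 lower for E2 in WT, 1 higher and 2 lower for genotype under saline, and 2 higher and 2 lower for genotype after E2.

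Markers of other cells also moved between the same groups, and their part in the macrophage results was not tested. Under saline, called lower in EAAE were 6 of 17 lymphocyte and natural killer markers (Gzmb -2.43, Prf1 -1.07, Nkg7 -0.86 and Lck -0.73 among them), 3 of 6 tested granulocyte markers and 2 of 11 dendritic cell and MHC class II markers, against 15.0% of all genes. Mpo, a granulocyte enzyme, was higher by 2.24. The eosinophil genes Siglecf (at least 2.07-fold), Prg2 (-2.19) and Ccr3 (-1.45) were the 3 lower granulocyte calls. The dendritic calls were Itgax (-1.26) and H2-Aa (-0.95), and a second Itgax probe had the opposite sign (0.18). The summed level of the lymphocyte markers was 2.34 to 2.42 in EAAE saline and 3.96 to 4.26 in WT saline uteri. That of the dendritic markers was 26.4 to 37.6 in EAAE saline and 49.8 to 56.4 in WT saline uteri, and that of the granulocyte markers 0.555 to 0.595 in EAAE saline and 0.614 to 3.55 in WT saline uteri. Uterine epithelium markers went the other way, with 5 of 7 higher and 1 lower in EAAE, and summed levels of 187 to 235 in EAAE saline and 119 to 134 in WT saline uteri. None of the 5 tested mast cell, 3 erythroid, 6 smooth muscle or 8 adipocyte markers was called under saline, and 3 of 8 endothelial markers were lower.

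In WT after E2 all 8 adipocyte markers were lower, with a median of -3.35, and Lep was at least 3.34-fold lower. Their summed level was 2.49 to 24.7 in WT E2 and 24.99 to 189 in WT saline uteri, and 50.7 to 276 in EAAE E2 uteri, where all 8 were higher than in WT E2 with a median of 3.74. Of 8 endothelial markers 5 were also lower in WT after E2 (Cldn5 -1.49, Tek -0.67, Tie1 -0.35 and Emcn -0.30 among them), as were 4 of 6 stromal markers, with 1 higher. No dendritic, granulocyte, lymphocyte, erythroid or smooth muscle marker was called in WT after E2 on the probe used, but 2 other probes of the dendritic marker Zbtb46 were higher (1.11 and 0.98, adjusted p over probes 6.82e-05 and 0.000595), against -0.21 on its brightest probe. In EAAE after E2, the calls among all these lists were Mpo (-2.66, adjusted p = 0.0367) and Hand2, a stromal factor (0.69, 0.0401).

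**Figure D5:**
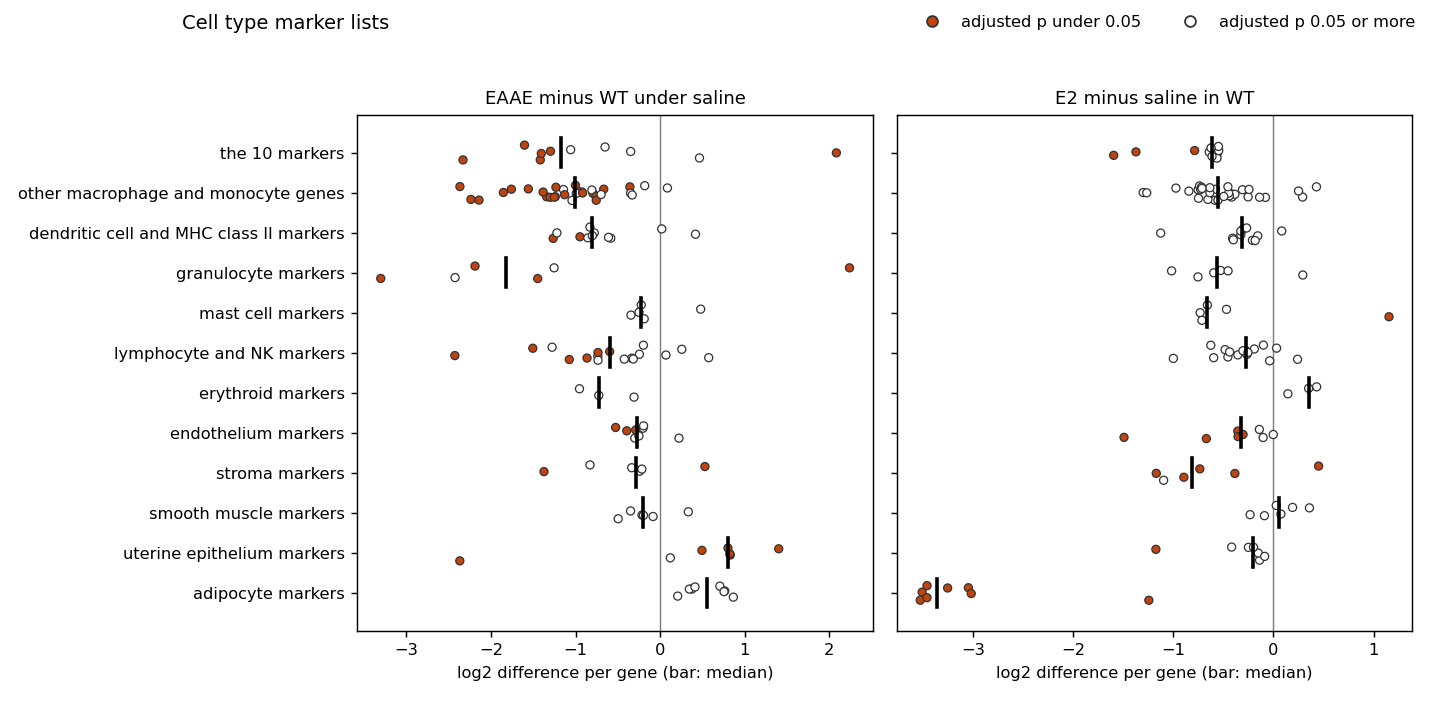
Log2 differences of the genes of 12 marker lists for genotype under saline and for E2 in WT, with a bar at each list's median. Adipocyte markers have medians of 0.56 under saline and -3.35 for E2 in WT, and uterine epithelium markers 0.80 and -0.20.

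The array profile of each other gene, centred on its mean, was set against the mean profile of the 10 members over the 12 arrays, by the root mean square of the difference on the log2 scale. Of 13272 genes ranked, the 8 closest were Nrros (0.109), Tmem106a (0.113), Tnfaip8l2 (0.124), Lpxn (0.126), Marchf1 (0.153), Fyb (0.162), Col14a1 (0.163) and Ighm (0.164). Among the members Csf1r lay closest to their shared mean (0.116), and Cd163 (1.55), Cd14 (0.826) and Ms4a7 (0.786) lay furthest. The measure is a description over arrays that include the group differences above, and the members' mean contains the member it is set against.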

How the data were processed

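Uterine RNA of 12 ovariectomized mice in 4 groups of 3 was hybridised to 12 single-colour Agilent arrays, from 500 ng of total RNA each per the labels. The deposited intensity is the processed signal of Agilent Feature Extraction 9.5.3.1, which per the file headers is background-corrected and detrended within each array and not scaled between arrays (version 9.5 in the submitters' processing notes). A second deposited table, of all 12 arrays together, repeated these intensity values on every spot, uncentred, with column medians of 147.7 to 225.4. Arrays give no counts, so their number limits the precision.

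From the deposited intensity, log2 values were computed and each array's 75th percentile of log2 was subtracted. Control spots (1639 of 45018) and outlier spots (56 to 117 per array) were left out, and spots of a probe were averaged. Probes had to be well above background in all 3 mice of some group, which removed 12166 probes. Names came from accessions, symbols or synonyms in a RefSeq table (GRCm38.p6) for all but 8440 probes, which kept the files' name. The files give probe positions on mm7. Where more than 1 probe of a gene was tested (6727 genes), the brightest was used.

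limma 3.58.1 (lmFit and eBayes, R 4.3.3) fitted the 12 arrays together, and its 2-sided p-values were adjusted by Benjamini-Hochberg over 19297 genes at a threshold of 0.05, after the code had been tested on simulated data. A p in parentheses after a value is this adjusted p. Tables and figures were made in Python 3.11.15 (pandas 2.3.3, numpy 2.4.6, matplotlib 3.10.9). "Well above background" is the files' own flag. In an "at least" fold, the dim group was set at the higher of its own value and the lowest well-measured signal of each array.

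Named were all members in every comparison, Esr1, up to 4 called genes of each other list with the smallest p (or 2 where none was called) and the 8 genes most like the members. The members and lists were chosen with earlier results of these data known. Alternatives were array median scaling, quantile normalization, normexp background correction (offset 50), the series table, no filter or a stricter filter on dim probes, slide as a block, slide with position, a replicate block, a fit of the compared groups alone, the mean of a gene's probes and each array left out. Leaving out both WT saline mouse 1 and EAAE E2 mouse 1 was added after seeing the data.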

Additional observations from a re-analysis of the deposited data

Results flagged for a closer look

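The responses of 3 members to E2 differed between EAAE and WT uteri by the interaction term of the fit (limma, adjusted p over all genes). The Cd14 response differed by 1.62, with an adjusted p of 0.000393. The Cd163 response differed by 1.54 (adjusted p = 0.0333) and the Aif1 response by 0.92 (adjusted p = 0.0447). These 3 of 10 members stood against 22.2% of all genes called more positive. Of 23 alternatives, Cd163 lost its call in 10 and Aif1 in 16, while Cd14 kept its call in all. Levels of 3 mice per group are too few for a search for outlying samples.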

How the results depend on the processing

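Among the recomputed member values, 1067 kept their direction and side of the threshold, 55 gained a call, 54 lost one and 14 changed sign. Some of the 1067 could not move, since the series table repeats the same intensities. Members called for E2 in WT numbered 5 with the replicate block, where 9357 of the 19297 genes were called in all. A fit of the compared groups alone called 8, with 10303 genes in all. Without single arrays 2 to 5 were called, with 7685 to 9894 genes in all. With slide and position the median was -0.28. For genotype under saline, slide and position left 0 called, with 419 genes in all, and a median of -0.64. Single arrays left out gave 4 to 9 calls, with 4169 to 6071 genes in all. For genotype after E2 the members called were 7 without WT saline mouse 1 and EAAE E2 mouse 1 together, with 10672 genes in all. They were 2 to 7 without single arrays, with 10820 genes in all where 7 were called. The median there was -0.042 with the mean of a gene's probes, -0.38 without those 2 arrays, and -0.38 to 0.50 without single arrays. For the response difference the members called were 1 without a filter on dim probes, with 6174 of 27669 genes in all. They were 5 with the stricter filter (6730 of 16518 genes) and 1 with slide and position (5846 of 19297). The replicate block called 7 (7055 genes in all), and the fit without those 2 arrays called 1 (6087). Without single arrays 1 to 10 were called, with 6845 genes in all where 10 were called. Signs turned with slide and position for Mrc1 under saline (0.27) and, after E2, for Adgre1 (0.49), Aif1 (0.22), C1qa (0.29) and C1qb (0.41), none of them called. Cd163 in EAAE after E2 was 0.037 with slide as a block and -0.32 to 0.12 without single arrays. For genotype after E2, Cd68 was -0.13 without those 2 arrays, and without single arrays the ranges were -0.13 to 0.79 for Cd68, -0.80 to 0.29 for Adgre1, -0.78 to 0.038 for C1qa and -0.88 to 0.11 for C1qb. Deviations of same-numbered samples correlated at -0.28 to 0.27 (8 of 18 pairs over 0.1). Other pairs of different groups correlated at -0.36 to 0.35 (12 of 36 over 0.1). These ranges do not settle whether the numbers pair the samples, and the replicate block moved the 2 counts given. The cause of these changes was not tested. With 3 arrays per group and position 4 of every slide given to EAAE E2, position cannot be told apart from that group. Position and genotype were also poorly separated under saline.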
